A study of Mus musculus with 11 samples.

Results

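The genes described here are the collagen chains and the genes of collagen biosynthesis. They are 40 genes chosen by name and function out of 48709 listed in the count tables. Of the 40, 32 encode chains and 8 encode enzymes, a chaperone and an enhancer of procollagen processing. All 40 passed the filter on low counts, among 17365 genes tested.

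Collagens are secreted proteins built of 3 alpha chains wound into a triple helix. Inside the endoplasmic reticulum the new chains are hydroxylated on proline and lysine, and the helix is held by a dedicated chaperone before export. Outside the cell the procollagen ends are trimmed, and the molecules assemble into fibrils, basement membrane sheets or beaded filaments. In the brain most fibrillar and basement membrane collagen lies in the meninges and around blood vessels, while some transmembrane chains are made by neurons.

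Expression was measured by polyA RNA sequencing of primary hippocampal neurons from embryonic day 17 embryos of CD1 mice. In the 6 control samples the cells received lipid nanoparticles with a negative control RNA, and in the 5 mimic samples nanoparticles with a miR-181a-5p mimic. Both groups were treated on day 10 in vitro for 48 h and lysed on day 12, and by the study's methods both also received ApoE4. The hippocampi of several embryos were pooled before plating, and no source used here says that the samples came from separate preparations, so p-values measure the spread between these samples, which may be technical.

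The sequences of the mimic and its control show what differed between the groups. The capitals mark the seed, bases 2 to 8, by which a miRNA finds its targets. The mimic is identical to the mature mmu-miR-181a-5p of RefSeq (GRCm38.p6), and the other family members given there share its seed.

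mimic miR-181a-5p: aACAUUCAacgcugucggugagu

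negative control for mimic: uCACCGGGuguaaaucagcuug

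mmu-miR-181b-5p: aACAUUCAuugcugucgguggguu

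mmu-miR-181c-5p: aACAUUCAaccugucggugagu

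mmu-miR-181d-5p: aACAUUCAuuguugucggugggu

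Total counts lay between 17287168 and 48091231 per sample, and control replicate 1 was the deepest. A count of 3 corresponds to 0.0631 to 0.175 CPM, the usual scaling of counts by library size, and this limit covers counting error only. The labelled cell type was checked by its markers, and the 8 neuronal genes summed to 7164 to 7383 CPM in control and 6939 to 7147 CPM with the mimic. Astrocyte genes were also high (2102 to 2334 and 1993 to 2195 CPM, 6 genes), so markers of glia were present beside those of neurons. Control replicate 1 had the lowest level among the control samples for Col1a1, Col1a2, Col3a1, Col4a1, Col4a2, Col6a1, Col6a2 and Col6a3. It was also the lowest for Pcolce, Col4a3, Col4a4, Col4a5, Col4a6, Col5a2, Col8a1, Col11a1, Col14a1, Col18a1, P4ha1, P4ha3, Plod2 and Serpinh1. Results without it are given for Col18a1 and among the alternative fits.

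At the level of single genes, collagen transcripts were called higher in mimic samples for Pcolce, Col6a1 and Col4a2, and no member was called lower. These 3 of 40 members (7.50%) stand beside 2.85% of all genes tested that were called in either direction, 1.08% higher and 1.77% lower, by edgeR's quasi-likelihood test at a Benjamini-Hochberg adjusted p under 0.05. In 4 of 40 members, Col1a2, Col18a1, Col6a1 and Pcolce, every mimic sample lay above every control sample, which was so for 1.16% of all genes. The median log2 fold change was 0.049 over the members and -0.00015 over all genes, 24 of 40 members had a positive value (60.0%, against 49.9% of all genes), and 14 had an unadjusted p under 0.05 (35.0%, against 15.7% of all genes). DESeq2, the tool named in the study's methods, called 9 members higher, adding Col1a1, Col1a2, Col3a1, Col4a1, Col5a2 and Col18a1. Over all genes tested, DESeq2 called 564 in either direction (3.25%). Genes of one molecule can vary together between samples, so the members are not independent of each other.

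**Figure D1:**
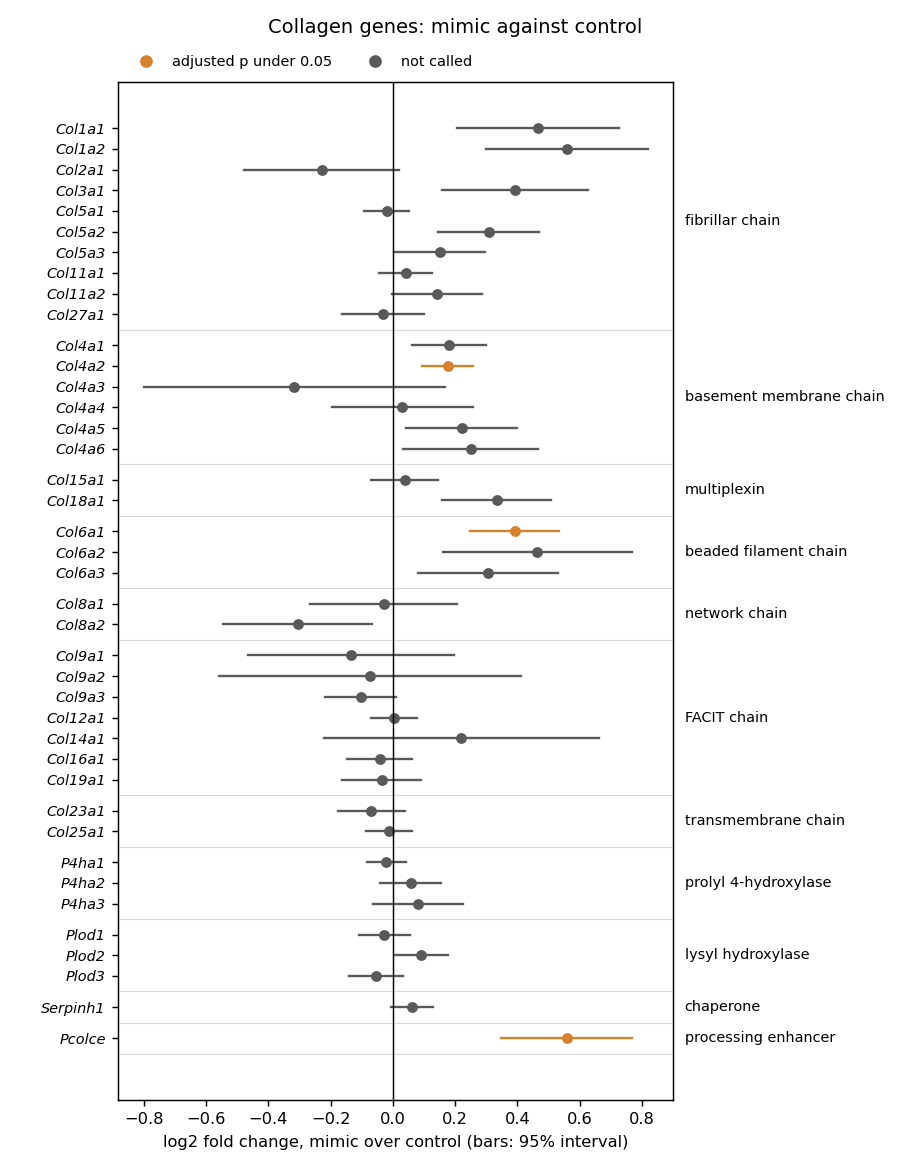
Log2 fold change of each of the 40 collagen genes, mimic over control, grouped by role. Points are edgeR estimates, bars their 95% intervals and orange marks an adjusted p under 0.05. Pcolce (0.56), Col6a1 (0.39) and Col4a2 (0.18) were called, while the values of the FACIT and transmembrane chains and of the hydroxylases lie near 0 or have wide intervals.

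The fibrillar chains form the ropes of connective tissue, and 0 of 10 were called by edgeR, with a median log2 fold change of 0.15 and 4 at an unadjusted p under 0.05. Type I collagen is the heterotrimer of the chains encoded by Col1a1 and Col1a2. Col1a2 had the smallest p of the group, with control levels of 56.7 (lowest), 83.7 (median) and 89.9 CPM (highest), and mimic levels of 104, 108, 101, 129 and 134 CPM. No mimic sample of Col1a2 overlapped the control range. Its log2 fold change was 0.56 (SE 0.133, 1.47-fold, adjusted p 0.0609 by edgeR), so it missed the threshold in spite of the separation.

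Col1a1 lay between 46.7 and 70.8 CPM in control and between 70.3 and 100.4 CPM with the mimic (log2 fold change of 0.47 with SE 0.133, adjusted p 0.117 by edgeR). Col3a1, the type III chain that co-assembles with type I in soft tissue, lay between 95.2 and 150.1 CPM in control and between 149 and 191 CPM with the mimic (0.39, SE 0.12, adjusted p 0.142 by edgeR). Only mimic replicate 3 fell within the control range for these 2 genes. The type V chains set the diameter of type I fibrils, and their values differed from one chain to the next. Col5a2 went from 33.1 ± 2.60 to 40.6 ± 5.01 CPM (mean ± SD, n = 6 and 5; log2 fold change 0.31, adjusted p 0.0778 by edgeR), and Col5a3 from 8.71 ± 0.931 to 9.54 ± 0.903 CPM (0.15, adjusted p 0.328 by edgeR).

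Col5a1 was the most abundant fibrillar chain per length of annotated exon, and second to Col3a1 per length of the longest transcript. Its control samples had 143 (lowest), 157 (median) and 167 CPM (highest), and its mimic samples 157, 152, 152, 157 and 145 CPM. The groups overlapped completely, and the log2 fold change of -0.020 had a 95% interval from -0.092 to 0.051. Col11a1, of the type XI molecule that nucleates fibrils, had a log2 fold change of 0.041 and Col11a2 one of 0.14, and Col27a1 one of -0.031, with adjusted p-values by edgeR of 0.743, 0.365 and 0.905. Col2a1, the main chain of cartilage, was low, at 2.31 ± 0.264 CPM in control and 1.95 ± 0.314 CPM with the mimic, with a log2 fold change of -0.23 (adjusted p 0.408 by edgeR).

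The type IV chains form the network of basement membranes. Of 6, 1 was called higher, the median log2 fold change was 0.18 and 5 values were positive. Col4a2 (ENSMUSG00000031503, GRCm38 chromosome 8, 11312805 to 11449287, plus strand) encodes the alpha 2 chain. Its control samples had 128 (lowest), 145 (median) and 152 CPM (highest), and its mimic samples 156, 166, 149, 169 and 162 CPM. Mimic replicate 3 lay below the highest control sample and the other 4 lay above all control samples. The log2 fold change was 0.18 (SE 0.042, 1.13-fold, adjusted p 0.0291 by edgeR). The call was lost without control replicate 2 or 6, or without mimic replicate 2, 4 or 5, with an adjusted p by edgeR of up to 0.0832.

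Col4a1 (ENSMUSG00000031502, chromosome 8, 11198423 to 11312826, minus strand) encodes the alpha 1 chain, which pairs with alpha 2 in the common type IV molecule. Its control samples had 231 (lowest), 269 (median) and 295 CPM (highest), and its mimic samples 287, 309, 279, 318 and 311 CPM. The size of its difference was that of Col4a2, with a larger spread (log2 fold change of 0.18 with SE 0.06, adjusted p 0.162 by edgeR). The 2 genes lie head to head, so that their first exons share 22 bases, 0.295% of the exon length of Col4a1. The stretch shown is on the strand of Col4a2 (RefSeq, GRCm38.p6, chr8:11312760-11312789), just before the start of Col4a2 and inside the first exon of Col4a1, because both genes start in this region. The capitals mark a CCAAT motif.

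Col4a2 start region: cccgaggagctccCCAATttgttggcgctg

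The ratio of Col4a1 to Col4a2 counts was nearly constant, at 1.87 ± 0.0558 in control and 1.87 ± 0.029 in mimic samples (SD, n = 6 and 5). The mimic minus control difference was 0.00903, and a two-sided exact permutation test gave p = 0.753. The other ratios compared were Col1a1 to Col1a2 (0.791 ± 0.0602 and 0.738 ± 0.0432), Col4a5 to Col4a6 (3.05 ± 0.156 and 3.01 ± 0.204) and Col6a1 to Col6a2 (2.47 ± 0.285 and 2.34 ± 0.219). None of the 4 differed between the groups beyond the spread, with adjusted p-values of 0.554 or more by the exact permutation test. These are ratios of counts without length correction, and they were computed after the values of the genes were seen.

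Col4a5 and Col4a6, a second head to head pair, lie on chromosome X with start sites 1343 bases apart. Their log2 fold changes were 0.22 and 0.25, with adjusted p-values by edgeR of 0.273 and 0.299. Col4a4 (0.031) and Col4a3 (-0.32) were low. Col4a3 had 7 to 22 counts per sample, and its 95% interval ran from -0.80 to 0.17. The interval covers both no change and a larger fall, and what change could be detected at that depth was not tested.

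The multiplexins are basement membrane proteoglycans whose C-terminal fragments circulate, endostatin from Col18a1 among them. For Col18a1 the control samples had 41.8 (lowest), 53.7 (median) and 57.9 CPM (highest), and the mimic samples 61.3, 68.0, 58.95, 70.8 and 69.9 CPM. The groups did not overlap. The log2 fold change was 0.33 (SE 0.090, adjusted p 0.0916 by edgeR), and without control replicate 1 the edgeR adjusted p was 0.00609. Col15a1, the other multiplexin, went from 17.99 ± 1.28 to 18.5 ± 1.35 CPM (log2 fold change 0.038, adjusted p 0.83 by edgeR).

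The type VI chains make beaded filaments that link cells to the matrix, and all 3 had positive values (median log2 fold change 0.39) with 1 called. Col6a1 (ENSMUSG00000001119, chromosome 10, 76708792 to 76726168, minus strand) had 24.6 (lowest), 29.4 (median) and 32.0 CPM (highest) in control and 35.8, 38.5, 32.6, 39.4 and 41.3 CPM in mimic samples. Every mimic sample lay above every control sample. Col6a1 rose by 0.39 on the log2 scale (SE 0.073, 1.31-fold, adjusted p 0.0122 by edgeR), and it was called in all 17 alternative fits. Col6a2 lay between 8.72 and 15.5 CPM in control and 14.3 and 18.6 CPM with the mimic (0.46, SE 0.154, adjusted p 0.171 by edgeR), and Col6a3 between 18.9 and 28.0 and between 26.7 and 34.2 CPM (0.31, SE 0.115, adjusted p 0.226 by edgeR).

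**Figure D2:**
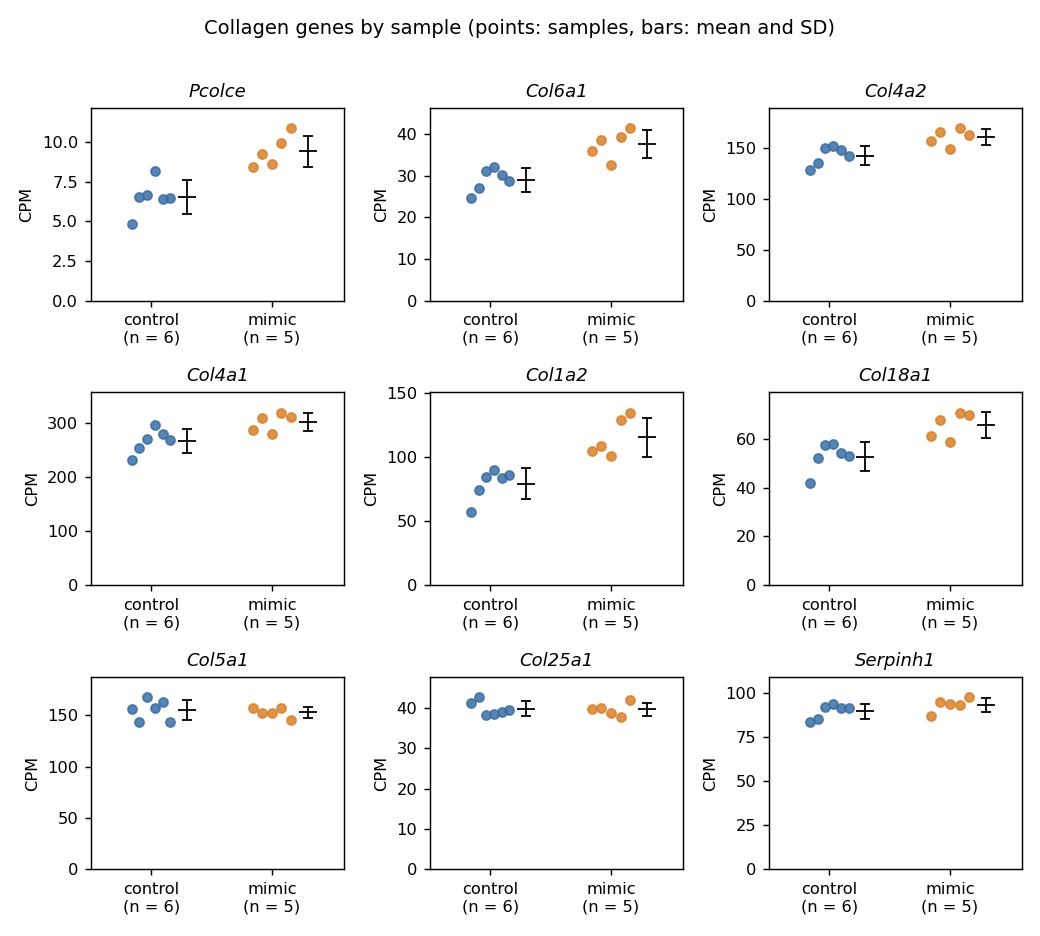
CPM of 9 collagen genes in each sample, with the mean and SD of each group (control n = 6, mimic n = 5) and y axes from 0. Every mimic sample lies above every control sample for Pcolce, Col6a1, Col1a2 and Col18a1, while the groups overlap for Col4a2, Col4a1, Col5a1, Col25a1 and Serpinh1.

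Pcolce (ENSMUSG00000029718, chromosome 5, 137605103 to 137613784, minus strand) had the smallest p of the members. It encodes the enhancer that speeds the removal of the C-terminal procollagen ends, the step that lets fibrillar collagen assemble. Its control samples had 4.86 (lowest), 6.49 (median) and 8.18 CPM (highest), and its mimic samples 8.42, 9.23, 8.60, 9.92 and 10.8 CPM. All 5 mimic samples lay above all 6 control samples, the nearest pair being 8.42 and 8.18 CPM. Pcolce rose by 0.56 on the log2 scale (SE 0.107, 1.47-fold, adjusted p 0.00898 by edgeR), and it was called in all 17 alternative fits. Of its exon length, 2.93% is shared with Fbxo24.

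Of the 6 hydroxylases that modify the chains inside the cell, 0 were called by edgeR, with 0 at an unadjusted p under 0.05 and 0 called by DESeq2. The prolyl 4-hydroxylase subunits make the hydroxyproline that stabilises the helix. P4ha1, the most abundant, had 73.2 (lowest), 77.0 (median) and 78.0 CPM (highest) in control and 73.2, 73.3, 80.0, 77.5 and 71.2 CPM in mimic samples. The groups overlapped, with a log2 fold change of -0.021 and a 95% interval from -0.084 to 0.042. P4ha2 had 14.9 (lowest), 16.9 (median) and 17.7 CPM (highest) in control and 18.1, 16.9, 18.1, 17.7 and 16.9 CPM with the mimic (0.058, adjusted p 0.668 by edgeR), and P4ha3 had a log2 fold change of 0.080 (adjusted p 0.69 by edgeR).

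The lysyl hydroxylases prepare the cross-linking sites. Plod2 had 26.6 (lowest), 28.8 (median) and 29.6 CPM (highest) in control and 29.9, 29.9, 28.6, 28.8 and 33.8 CPM in mimic samples. Mimic replicate 5 stood above the rest of its group, and the log2 fold change was 0.091 (SE 0.045, adjusted p 0.328 by edgeR). Plod1 (-0.027) and Plod3 (-0.056) had adjusted p-values by edgeR of 0.845 and 0.624. Of the exon length of Plod3, 11.7% is shared with Znhit1 on the other strand, and the library kit does not mark strand.

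Serpinh1 encodes HSP47, the collagen-specific chaperone. It had 83.5 (lowest), 91.4 (median) and 93.7 CPM (highest) in control and 86.6, 94.9, 93.4, 93.3 and 97.4 CPM in mimic samples. The groups overlapped, and the log2 fold change of 0.061 had a 95% interval from -0.0062 to 0.13 (adjusted p 0.413 by edgeR).

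The remaining chain families showed no call. The network chains Col8a1 and Col8a2 make the lattice below endothelial cells. Col8a2 had the smallest p among them, with 3.22 (lowest), 3.45 (median) and 3.81 CPM (highest) in control and 2.69, 3.91, 2.54, 2.11 and 2.65 CPM in mimic samples. In 4 of 5 mimic samples it lay below all control samples, and in mimic replicate 2 above them (log2 fold change of -0.31 with SE 0.122, adjusted p 0.197 by edgeR). Without mimic replicate 2 the log2 fold change was -0.49 with an adjusted p by edgeR of 0.0292. Col8a1 had a log2 fold change of -0.030 (adjusted p 0.948 by edgeR).

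The FACIT chains decorate the surface of fibrils, and their 7 values had a median of -0.043. Col9a3 had 15.2 (lowest), 16.7 (median) and 17.8 CPM (highest) in control and 14.3, 17.9, 15.9, 15.5 and 14.5 CPM with the mimic (log2 fold change of -0.10 with SE 0.058, adjusted p 0.419 by edgeR). Of its exon length, 6.07% is shared with Tcfl5 on the other strand. Col9a1 (-0.13), Col9a2 (-0.073) and Col14a1 (0.22) were near 1 CPM or below. Col12a1 was the most abundant FACIT chain, at 92.6 ± 5.59 CPM in control and 92.96 ± 4.27 CPM with the mimic, with a 95% interval of the log2 fold change from -0.070 to 0.079. Col16a1 (-0.043) and Col19a1 (-0.035) had adjusted p-values by edgeR of 0.788 and 0.869.

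The transmembrane chains stay anchored in the plasma membrane, and Col25a1 is a neuronal one. Col23a1 had 12.97 (lowest), 13.5 (median) and 14.7 CPM (highest) in control and 12.9, 11.8, 12.98, 13.7 and 13.7 CPM in mimic samples. The groups overlapped (log2 fold change of -0.069 with SE 0.055, adjusted p 0.616 by edgeR). Col25a1 went from 39.8 ± 1.74 to 39.6 ± 1.53 CPM, and the 95% interval of its log2 fold change ran from -0.085 to 0.062. Both were among the members with the least spread in control, with coefficients of variation of 4.78% and 4.38%, against 15.3% for Col1a1 and Col1a2.

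Between genes, levels were compared per length, as CPM per kilobase of annotated exon (RPKM). Serpinh1 (36.6 ± 1.68 RPKM) and Col4a1 (35.6 ± 2.96) were the highest in control samples (SD, n = 6), and their SDs overlap. They were followed by Col4a2 (21.5 ± 1.39), P4ha1 (18.5 ± 0.471) and Col5a1 (18.3 ± 1.16), of which the last 2 also overlap. Col3a1 had 13.1 ± 1.97 RPKM and Col1a1 9.48 ± 1.45. The lowest was Col4a3, at 0.0754 RPKM. With the length of the longest protein-coding transcript in place of all annotated exons, an alternative chosen after the data were seen, Col4a1 (40.2) stood above Serpinh1 (39.3), Col3a1 (23.1) took the place after them, and Col1a2 went from 6.35 to 14.8 RPKM, above Col1a1 (10.5) in place of below it. The order of type I chains therefore depends on the length used, and the comparison of groups within a gene does not.

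**Figure D3:**
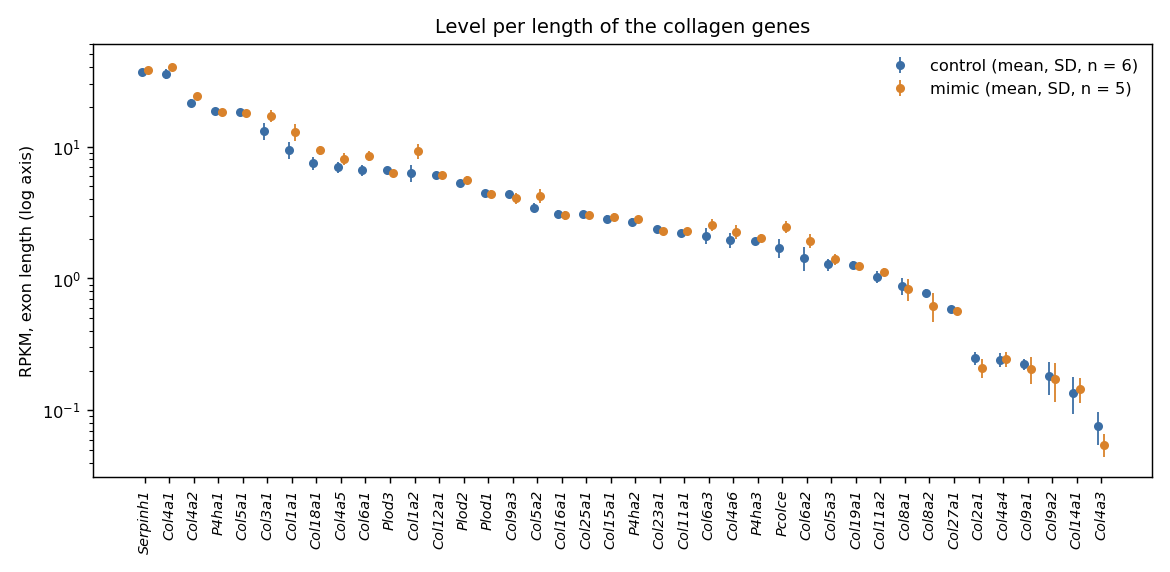
RPKM of the 40 collagen genes on a log axis, ordered by the control mean, with the mean and SD of control (n = 6) and mimic samples (n = 5). Levels run from 36.6 (Serpinh1) to 0.0754 RPKM (Col4a3) in control samples, and gaps between the groups are seen in genes of the middle range such as Col1a2 and Pcolce.

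Summed over the 40 members, collagen RNA was 1613 ± 104 CPM in control (1438 to 1732) and 1815 ± 97.9 CPM with the mimic (1704 to 1914), a ratio of 1.13. This was 0.160% of all counts in control and 0.183% in mimic samples. The groups overlapped, since mimic replicate 3 lay below control replicate 4. The 32 chains alone had a ratio of 1.15.

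In bulk RNA fewer cells of a type and less RNA per cell cannot be told apart, and markers of other cells moved with the collagens. All 12 markers on the fibroblast and meningeal list had positive log2 fold changes, and Hic1 (0.58), Foxd1 (1.21) and Foxc1 (0.30) rose, with adjusted p-values by edgeR of 0.000552, 0.00491 and 0.0475. Their sum was 161 to 269 CPM in control and 273 to 399 CPM with the mimic, a ratio of 1.42, and the ranges did not overlap. The highest of them were Igf2 (133 CPM in control), Dcn (22.8) and Lum (19.8), and no marker on this list was at 0 counts or failed the filter. Control replicate 1 was the lowest control sample for the sum (161 CPM) as it was for the chains and other members named above. The part of this shift in the collagen values was not tested.

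Cell cycle genes also moved, with 10 of 10 values positive, Top2a, Cdk1 and Ccna2 called higher, and a sum of 82.3 to 90.4 CPM in control and 97.5 to 106 CPM with the mimic. The vascular lists overlapped between the groups in their sums. The 5 endothelial genes tested all had positive values, but only Cdh5 was called. Those of Emcn (0.0010), Kdr (0.042), Pecam1 (0.053) and Flt1 (0.079) were smaller than their SEs (0.30, 0.070, 0.24 and 0.28). The 9 endothelial genes summed to 33.5 to 41.6 CPM in control and 34.6 to 44.0 CPM with the mimic, nearly all from Kdr (34.8 CPM in control), and Cldn5, Tie1, Erg and Tek were too low to test while Cdh5 rose (0.77, adjusted p 0.00713 by edgeR). The 9 pericyte and smooth muscle genes summed to 60.0 to 70.8 and 58.9 to 64.1 CPM, with Kcnj8 and Abcc9 too low to test and Rgs5 called lower (-0.66, adjusted p 0.0227 by edgeR). All mimic samples lay below all control samples in the neuronal sum, with Slc17a7 called lower (-0.14, adjusted p 0.0239 by edgeR), and oligodendrocyte lineage (47.3 to 54.5 and 48.9 to 55.6 CPM) and microglia (13.01 to 13.6 and 12.6 to 13.8 CPM) lists overlapped between the groups. The part of these shifts in the collagen values was not tested either.

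**Figure D4:**
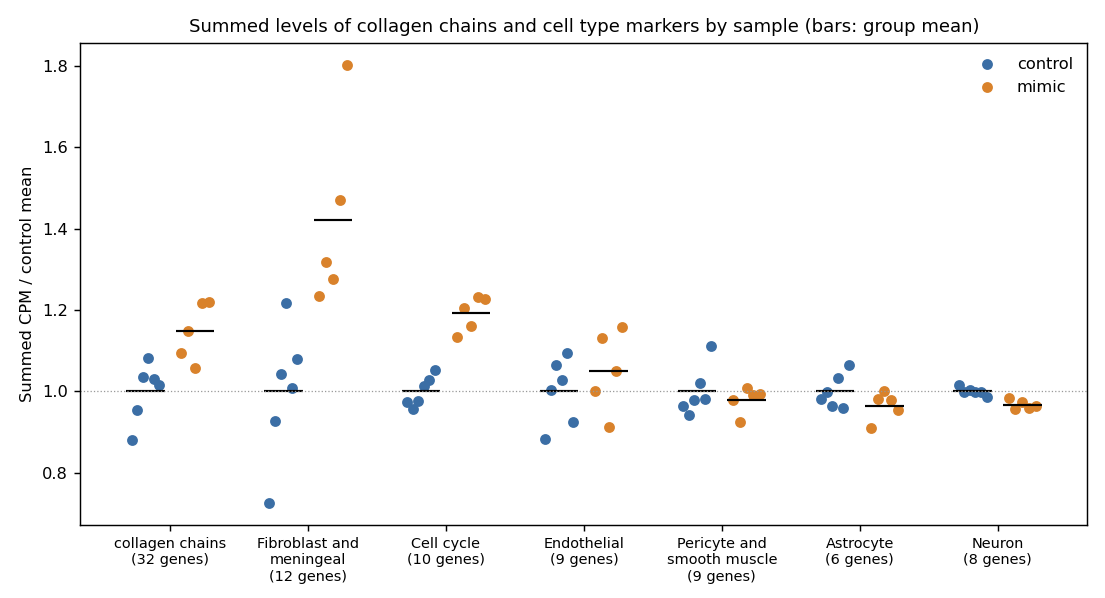
Summed CPM of the 32 collagen chains and of 6 marker lists in each sample, divided by the control mean of that list, with bars for group means. The fibroblast and meningeal list has the largest ratio (1.42) and its groups do not overlap, while the chains have a ratio of 1.15 and the endothelial and pericyte lists overlap between the groups.

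In the wider collagen pathway, 5 of 54 genes tested were called (9.26%), 4 of them higher, beside 2.85% of all genes called, 1.08% higher and 1.77% lower. Among the 12 genes of secretion and procollagen processing, Adamts2, the protease that removes the N-terminal ends, rose by 0.25 on the log2 scale (SE 0.061, adjusted p 0.0243 by edgeR). Among the 5 cross-linking enzymes Loxl2 rose by 0.50 (SE 0.094, adjusted p 0.00973 by edgeR), from 11.02 CPM in control. Among the 10 collagen receptors, Mrc2, an uptake receptor for collagen fragments, rose by 0.44 (SE 0.106, adjusted p 0.0417 by edgeR) and Itgb1, the shared integrin beta 1 subunit, by 0.11 (SE 0.030, adjusted p 0.0353 by edgeR).

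Adgrg1, the adhesion receptor that binds type III collagen in the developing brain, was the gene called lower. It had a log2 fold change of -0.14 (SE 0.034, adjusted p 0.0214 by edgeR). Of the 11 further chains tested, the 12 further enzymes and chaperones and the 4 collagen-binding proteoglycans, 0 were called by edgeR, with 2, 6 and 3 of them at an unadjusted p under 0.05, and DESeq2 called Sparc and Bgn. Col24a1 had too few counts to test. Over the 11 fits without 1 sample, Loxl2 was called in all, while the call was lost in 7 for Mrc2, 6 for Itgb1, 3 for Adamts2 and 2 for Adgrg1, and the number called in the wider pathway fell to 1 without mimic replicate 2, 2 without control replicate 1 and 3 without mimic replicate 4 or 5. The proteoglycan median was 0.42, but Dcn and Lum are also on the fibroblast list.

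The study's list of predicted miR-181a-5p targets held 2 of the 40 members (5.0%) and 6.02% of all genes tested. These were Col5a1 (-0.020) and Col16a1 (-0.043), neither of them called. A match to the mimic's seed (TGAATGT, on the sense strand of the longest annotated 3' UTR) was present in 7 of 40 members (17.5%), and in 18.5% of the 14489 genes tested that have an annotated 3' UTR. Each is shown with its flanks, since target predictions build on such matches, and the matched bases are in capitals (GENCODE M21, GRCm38).

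Col5a1, chr2:28038329-28038357, plus strand: tgttcagttgcTGAATGTttgtggtgcta

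Col16a1, chr4:130099156-130099184, plus strand: ctgatgggttgTGAATGTttgtgctattc

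Col4a4, chr1:82448594-82448622, minus strand: attgttgttgaTGAATGTattttctttta

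Col4a1, chr8:11198994-11199022, minus strand: catcaggccacTGAATGTgaaacaccagc

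Col5a2, chr1:45375251-45375279, minus strand: gtgcccagtaaTGAATGTtaagactctcc

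Col6a3, chr1:90766860-90766884, minus strand: ataaagtatatTGAATGTgccatga

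Col12a1, chr9:79600754-79600782, minus strand: tgtacacgatcTGAATGTgatcctgtata

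Only the match in Col4a4 is followed by an A, which extends it to 8 bases. By edgeR 0 of the 7 genes were called, with 3 at an unadjusted p under 0.05, while DESeq2 called Col4a1 and Col5a2 higher. Their log2 fold changes ran from -0.043 (Col16a1) to 0.31 (Col5a2 and Col6a3). The median was 0.031 for the members with a match and 0.058 for those without, and over all genes tested it was -0.024 with a match and 0.0055 without. The called members Pcolce, Col6a1 and Col4a2 held no match in this window.

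Promoter windows, from 250 bases before to 50 after the annotated start, were found in RefSeq for 32 members in 35 windows. On either strand, the CCAAT motif was in 31.4% of them (37.4% of all 32851 windows) and the TATAAA motif in 11.4% (13.6% of all). The GC box motif GGGCGG was in 71.4% of member windows, against 35.7% of all. These are matches of letters and were not related to the fold changes. The 32851 windows were not limited to the genes tested, while all members were tested. The difference in shares therefore cannot be assigned to collagen genes as such.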

How the data were processed

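The members and gene lists were chosen with earlier results of these data known. The values are counts of reads per gene, deposited as 1 table per sample. The authors mapped 50 bp single-end TruSeq v2 reads with STAR 2.5.2b to mm10 and counted them with featureCounts (Subread 1.5.1). The annotation and the strand and multimapping options are not given in the sources used here. The authors' normalized table was not used.

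The study's filter was applied (a minimum of 5 counts in 50% of samples or more), and genes were tested in edgeR 4.0.16 (TMM, robust quasi-likelihood, group alone, all 11 samples) in R 4.3.3, with Benjamini-Hochberg adjustment over 17365 genes. DESeq2 1.42.0, other scalings and filters, each sample left out and a replicate block were alternatives. CPM and RPKM were computed from the counts, with TMM-scaled libraries and GENCODE M21 exon lengths (GRCm38). Intervals are 1.96 SE, which is approximate and somewhat narrower than the quasi-likelihood test. For Plod2 the interval was 0.0029 to 0.18, while the unadjusted p by edgeR was 0.0529. The fit was tested on simulated data first.

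Every member is named, and values by sample (for control the lowest, median and highest) are given for called members, the 5 highest per length in control and the smallest p of each role. Wider and marker genes are named if called. Replicate numbers did not pair samples. No 2 samples of a group held the same counts, with chi-square per gene of 1.23 to 5.57 over 25 pairs. Control replicates 3 and 5 were the closest (1.23). This check cannot tell separate cultures from libraries made of the same RNA.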

Additional observations from a re-analysis of the deposited data

Results flagged for a closer look

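The level of each of the 40 members and 11 summed lists was examined in both groups, 102 series of values, and in 5 of them 1 sample was separated from the others of that group. Chance flags about 1 in 20 groups, which gives 5.1 here. Control replicate 1 stood below the other control samples for Col18a1 (5.3866 log2 CPM, the nearest at 5.7077) and for Col4a6 (3.5701, the nearest at 3.9695). Control replicate 2 was low for P4ha2 (3.8997 log2 CPM, the nearest at 4.061). Mimic replicate 3 was low for Col4a4 (1.0393 log2 CPM, the nearest at 1.3817), and mimic replicate 5 was high for Plod2 (5.0802, the nearest at 4.9033). None of the 5 genes was called between the groups by edgeR.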

How the results depend on the processing

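The calls of Pcolce and Col6a1 held in all 17 alternatives and that of Col4a2 in 12. Without control replicate 1 the log2 fold changes of Pcolce, Col6a1 and Col4a2 were smaller (0.45, 0.33 and 0.14), and all were still called. In that fit the values of Col4a4 (-0.022) and Col14a1 (-0.0021) turned negative, and Adamts2, Adgrg1 and Itgb1 were no longer called. Members called were 9 with DESeq2, 5 without a count filter and 2 to 4 without 1 sample. Genes called were 564 with DESeq2, 785 without a count filter and 218 to 491 without 1 sample (218 without control replicate 1, 237 without mimic replicate 2, 278 without mimic replicate 4). Wider pathway genes called were 7, 8 and 1 to 6 in that order. With upper-quartile scaling 49.1% of the calls over all genes were lower, against 62.0%. Replicate numbers gave no pairing of samples (r of deviations -0.0232 to 0.0158 for same numbers, -0.0728 to 0.0781 for others), and with the replicate block, which drops control replicate 6, 11 members and 328 genes were called. Of 678 member values 25 changed sign, all of members not called. Across fits without 1 sample these were Col5a1 (-0.0357 to 0.00229), Col4a4 (-0.0217 to 0.0986), Col15a1 (-0.00056 to 0.069), Col8a1 (-0.128 to 0.0503), Col9a2 (-0.297 to 0.0437), Col12a1 (-0.0153 to 0.0308), Col14a1 (-0.00214 to 0.339), Col19a1 (-0.0583 to 0.0055754) and Col25a1 (-0.0294 to 0.0135), and otherwise Col9a2 with the replicate block (0.0511) and Col12a1 without a count filter (-0.000529). The cause was not tested.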

Other observations

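Among the 6 control samples alone, members were set against the mean log2 CPM of the 12 fibroblast and meningeal markers, a check chosen after the data were seen, over 40 relations. For Col1a2 Pearson's r was 0.97 and Spearman's rho 0.83 (exact permutation p 0.0111 and 0.0583), and adjusted over the 40 relations the p-values were 0.0694 and 0.233. For Col4a1 they were 0.97 and 0.94 (exact permutation p 0.00833 and 0.0167, adjusted 0.0694 and 0.233), and for Serpinh1 0.99 and 0.83 (exact permutation p 0.0139 and 0.0583, adjusted 0.0694 and 0.233). For Col25a1 they were -0.83 and -0.60 (exact permutation p 0.0972 and 0.242, adjusted 0.216 and 0.42). Without control replicates 1 and 2, the samples farthest from the median, r was 0.95, 0.92, 0.96 and -0.36 in that order. Of the 13 members with r above 0.8, 6 stayed above it, and r lay between 0.21 and 0.99. It went from 0.96 to 0.57 for Col4a2, from 0.96 to 0.64 for Col6a1 and from 0.87 to 0.29 for Col1a1. Of the 13, r rose only for Pcolce (from 0.86 to 0.97) and Col4a6 (from 0.89 to 0.99). Only control replicates 3 to 6 remained, with marker means of 2.93 to 3.09 log2 CPM against 2.46 and 2.66 in those left out. Over so narrow a range, these changes in r cannot show whether the relations depend on the 2 samples left out. None of the 40 relations passed the adjustment.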
